A study of Mus musculus with 6 samples.

Results

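The genes examined were those that lie beside Ffar3 on mouse chromosome 7. They were listed by position, as 55 symbols within about 1 Mb of Ffar3, with the 3 fatty acid receptor genes Ffar1, Ffar2 and Ffar3 left out. The list did not take in every gene there, as 19 further gene rows lay within 1 Mb. Of the 55 symbols, 53 had a row among the 23179 gene rows of the data, and Thap8 and Ovol3 did not. Measured between start sites, the 53 genes reached from 996 kb on the side of lower coordinates (43 genes) to 300 kb on the other side (10 genes), and the nearest, Cd22, was 24.2 kb away. RNA was sequenced from pancreatic islets of male C57BL/6J mice aged 10 to 14 weeks. One group was wild type (WT) and the other was Ffar3-/- (KO). Each group had 3 libraries, described as biological replicates, and each library came from islets pooled from 2 pancreata. How the Ffar3 allele was made is not given in the sources used here. Values are FPKM, fragments counted per length of transcript and scaled for the library in a way the sources do not give.

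Ffar3 encodes a cell surface receptor that short-chain fatty acids activate. Genes that sit beside a targeted gene are inherited with it, and in mice the stretch they occupy can differ from that of wild-type controls in more than the targeted gene. Such neighbours may also share regulatory DNA with the targeted gene. Around Ffar3 they include a cluster of zinc finger genes, many of whose products hold a KRAB domain and repress transcription, genes that every cell uses, genes of immune cells, skin and nerve, and the FXYD family, small membrane proteins that tune the sodium pump.

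Ffar3 was at 4.69, 5.26 and 6.68 FPKM in WT replicates 1, 2 and 3. It was listed at 0 in KO replicates 1 and 2, with 0.105 in KO replicate 3, so the targeted gene matched all 6 labels. Its direct neighbours fell as well: Ffar1, 5.39 kb away, was at 36.3, 31.3 and 34.7 FPKM in WT and 15.5, 14.7 and 14.0 in KO (log2 difference -1.15), and Ffar2, 32.4 kb away, at 9.83, 8.88 and 10.2 against 5.17, 4.55 and 4.79 (-0.86). The FPKM sums were 429148 to 451899 across the WT group, and 416935, 698280 and 1056344 for KO replicates 1, 2 and 3 respectively. Total read depth is unknown. Markers of acinar cells, the enzyme-making cells around the islets, took 5.23% to 7.82% of the sum of WT libraries. The KO shares were 5.05%, 30.0% and 42.3% for replicates 1, 2 and 3. All 19 islet endocrine markers were detected, with summed levels of 80370 to 84573 FPKM in WT and 54143 to 71223 in KO, and 13 of them were below WT in every KO library. In such bulk samples, fewer cells of a type and less RNA per cell cannot be told apart.

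The 5 genes below carried the widest differences among those that passed the test, and the 250 bases before their start sites as RefSeq places them are shown because these genes' RNA differed most. They are Prodh2 (chr7:30493408-30493657, plus strand) and Fxyd3 (chr7:31076698-31076947, minus strand), which rose, and Atp4a (chr7:30711959-30712208), 2200002J24Rik (chr7:30698676-30698925) and Alkbh6 (chr7:30308503-30308752), all on the plus strand, which fell. RefSeq and the GENCODE positions given for the genes place some starts differently, so the windows of Prodh2, Alkbh6 and Fxyd3 end inside the GENCODE gene. The sequences are RefSeq's for GRCm38.p6, read 5′ to 3′ on the gene's strand, and the capitals mark each CG pair, the site of DNA methylation.
Prodh2: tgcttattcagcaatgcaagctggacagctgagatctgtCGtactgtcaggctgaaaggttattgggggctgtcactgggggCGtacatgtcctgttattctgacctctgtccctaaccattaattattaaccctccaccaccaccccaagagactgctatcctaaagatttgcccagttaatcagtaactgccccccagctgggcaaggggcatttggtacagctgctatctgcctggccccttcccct
Fxyd3: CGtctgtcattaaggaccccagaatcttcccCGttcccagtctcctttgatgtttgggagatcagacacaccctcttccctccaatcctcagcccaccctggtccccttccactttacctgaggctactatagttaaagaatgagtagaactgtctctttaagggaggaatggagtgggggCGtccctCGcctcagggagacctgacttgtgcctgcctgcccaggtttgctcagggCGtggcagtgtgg
Atp4a: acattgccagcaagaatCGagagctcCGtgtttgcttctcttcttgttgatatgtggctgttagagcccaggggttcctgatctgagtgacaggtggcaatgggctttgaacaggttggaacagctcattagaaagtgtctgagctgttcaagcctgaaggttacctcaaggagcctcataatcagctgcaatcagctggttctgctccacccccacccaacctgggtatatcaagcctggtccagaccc
2200002J24Rik: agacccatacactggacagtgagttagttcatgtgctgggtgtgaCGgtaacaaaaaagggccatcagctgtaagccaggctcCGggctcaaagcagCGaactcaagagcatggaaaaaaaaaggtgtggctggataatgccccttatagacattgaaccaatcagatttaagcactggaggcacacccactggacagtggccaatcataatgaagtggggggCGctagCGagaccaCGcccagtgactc
Alkbh6: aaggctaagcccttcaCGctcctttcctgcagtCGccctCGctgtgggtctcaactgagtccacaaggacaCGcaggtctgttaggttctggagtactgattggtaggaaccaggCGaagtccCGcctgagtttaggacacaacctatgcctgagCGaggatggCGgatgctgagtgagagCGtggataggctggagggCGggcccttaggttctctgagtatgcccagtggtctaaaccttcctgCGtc
The CG pairs are sparse before Prodh2 and Atp4a (2 each), number 5 before Fxyd3 and 6 before 2200002J24Rik, and number 11 before Alkbh6. The median over 49 of the 53 genes with an entry was 8, against 6 over all 32851 promoters of the table. The GC box GGGCGG, searched on both strands, lay before Alkbh6 and before none of the other 4, and was found in 34.7% of the 49 and 32.7% of all promoters. The TATA box TATAAA lay in 0 of the 49 windows against 12.4% of all, and CACGTG, an E-box that Usf2 and related factors are known to bind, in 1 of the 49 (2.04%) against 6.02% of all. By group, GGGCGG lay in 5 of 9 promoters of genes that rose and in 5 of 13 of genes that fell. The letters are those of the reference genome, and no DNA sequence of the KO mice was used.

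Of the 53 genes, 43 averaged 1 FPKM or more across libraries, and these were tested with limma on log2(FPKM + 1). A gene is said to rise or fall where its adjusted p was under 0.05. By that rule 23 differed, 10 higher and 13 lower in KO, among 11669 tested genes of which 39.9% differed (20.3% higher and 19.6% lower). Without WT replicate 1 or without WT replicate 3 the 23 became 15, while the share of all tested genes fell from 39.9% to 21.3% and 21.5%. Without WT replicate 1 the 10 became 6, and without WT replicate 3 the 13 became 8. In KO replicate 1 alone against WT, the only KO library with acinar transcripts near WT, 16 differed, 8 in each direction, against 26.1% of all tested genes. That single library was taken to vary like the WT libraries. Of the 43, 8 lay under 1 FPKM in one group and entered the test through the other group (Zfp14, Zfp82, Zfp382, Hcst, Nphs1, Prodh2, 2200002J24Rik and Atp4a). With no filter, 21 of all 53 differed, against 24.7% of 17734 rows. The 3 KO values lay on one side of the 3 WT values for 32 of the 43, 14 above and 18 below. Over all tested genes this held for 56.3% (27.8% above and 28.5% below). Counting Sbsn among the 10 untested, it held for 33 of the 53, against 44.6% of all rows above 0. Of the 43 tested, 10 passed and differed by at least 0.5 log2 units, against 14.2% of all tested genes. By at least 1 it was 4 of the 43, against 2.78%. The exact two-sided permutation test of any single gene cannot go below p = 0.1 with 3 libraries against 3. The median log2 difference of the 43 was 0.10, against -0.01 over all tested genes, and the median size of the difference was 0.34 against 0.22.

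**Figure D1:**
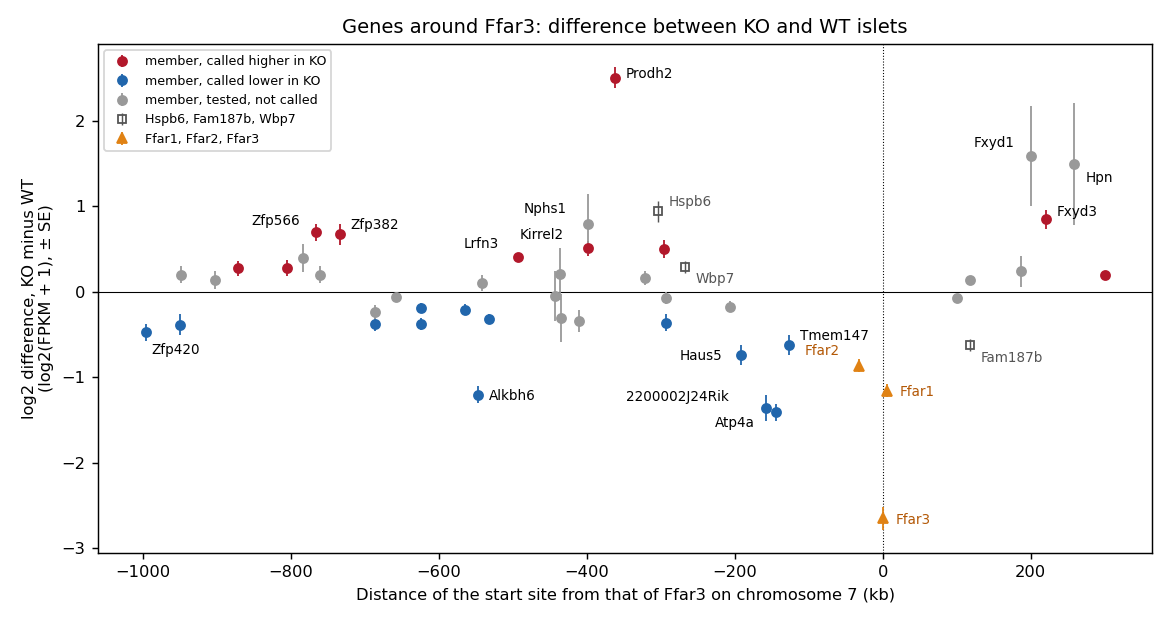
Log2 difference between KO and WT (log2(FPKM + 1), ± SE) of the tested genes among the 53, the Ffar genes, Hspb6, Fam187b and Wbp7 against the distance of its start site from that of Ffar3 in kb, with 3 libraries per group. Prodh2 stands highest at 2.51, the genes between Haus5 and Tmem147 lie below 0, and both rises and falls occur along the interval.

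The zinc finger cluster held 12 of the genes, between 686 and 996 kb from Ffar3, and moved in both directions: 4 rose, 3 fell and 5 did not pass (58.3% called, against 36.7% of the 259 other tested genes named Zfp). Zfp566 was at 2.23, 1.69 and 1.80 FPKM in WT and 3.51, 3.69 and 3.88 in KO (log2 difference 0.70, SE 0.10, adjusted p = 0.0026). Zfp382, a KRAB zinc finger gene, was at 0.630, 0.463 and 0.714 against 1.29, 1.60 and 1.79 (log2 difference 0.67, SE 0.12, adjusted p = 0.0069). Each KO library lay above each WT library for both, and they were the largest rises of the cluster. With equal sums outside the acinar list the adjusted p of Zfp566 was 0.0546. The annotation also has a gene on the same strand over Zfp566 and Zfp82 (Gm26920), so reads of these can be split by estimate only. Zfp568, known for its part in early mouse development, was at 7.91, 8.02 and 7.80 FPKM in WT and 11.0, 8.65 and 9.79 in KO (0.27, SE 0.09, adjusted p = 0.040). Zfp14 was at 0.950, 0.916 and 0.898 against 1.36, 1.33 and 1.31 (0.28, SE 0.09, adjusted p = 0.046). Both calls were near the threshold and were lost when single libraries were left out. Zfp14 lost it without any of the 6 (adjusted p of 0.108, 0.104 and 0.115 without WT replicates 1, 2 and 3, and 0.0708, 0.0794 and 0.0725 without KO replicates 1, 2 and 3). For Zfp568 it was 0.112, 0.0925 and 0.122 without the WT libraries in that order, 0.0579 without KO replicate 1 and 0.077 without KO replicate 3. With equal sums outside the acinar list the log2 differences were 0.05 for Zfp568 and 0.16 for Zfp14 (adjusted p of 0.861 and 0.536). For Zfp14 the adjusted p was also 0.110 with the acinar covariate and 0.0603 in KO replicate 1 alone.

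The falls of the cluster lay at both of its ends, with Zfp420 and Zfp27 at the far end and Zfp146 at the near end. Zfp420, the most distant gene, fell from 2.01, 2.14 and 2.04 FPKM in WT to 1.42, 1.07 and 1.14 in KO (-0.47, SE 0.10, adjusted p = 0.010), and its adjusted p was 0.0516 once the acinar level entered as a covariate. Its neighbour Zfp27 was at 2.35, 2.89 and 2.91 against 2.26, 1.82 and 1.5 (-0.38, SE 0.12, adjusted p = 0.047). Zfp146, made almost wholly of zinc fingers, was at 24.6, 26.1 and 26 against 22.1, 17.6 and 19.0 (-0.37, SE 0.09, adjusted p = 0.015). For these 2 the highest KO value was that of KO replicate 1, the library with the lowest acinar share, and in that library alone the log2 differences were -0.18 and -0.20 (adjusted p of 0.293 and 0.0758). Zfp146 lost its call without WT replicate 2 (adjusted p = 0.0513) or WT replicate 3 (0.0594). Zfp27 lost it without WT replicates 1, 2 or 3 (0.0648, 0.131 and 0.144) and KO replicates 2 or 3 (0.101 and 0.1). The acinar covariate also ended both calls (0.243 for Zfp27 and 0.0689 for Zfp146), as did equal sums outside the acinar list (0.0722 and 0.0545, with larger falls of -0.54 and -0.61). Among the 5 that did not pass, the noncoding gene Gm5113, which starts beside Zfp146, was at 2.02, 1.80 and 1.93 FPKM in WT and 1.54, 1.37 and 1.5 in KO (adjusted p = 0.066). Zfp383 was at 1.53, 1.30 and 1.23 against 1.59, 1.91 and 1.62 (adjusted p = 0.15). The groups did not overlap for either gene. The groups overlapped for Zfp74, Zfp82 and Zfp260, with log2 differences of 0.14, 0.39 and 0.20 (adjusted p of 0.33, 0.093 and 0.15).

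Genes with general duties in the cell mostly moved down. Of the 14, 13 had a row and 12 were tested, of which 7 fell, 1 rose and 4 did not pass. Over all tested genes 19.6% fell and 20.3% rose. Alkbh6, of the AlkB family of dioxygenases, had the largest fall of this list, from 38.1, 32.2 and 37.9 FPKM in WT to 17.0, 14.5 and 13.8 in KO (chr7:30308717-30314304 on mm10; log2 difference -1.20, SE 0.10, adjusted p = 0.00054). The WT mean was 2.39 times the KO mean, and no KO library came near the lowest WT value. Haus5, a subunit of the augmin complex that builds spindle microtubules, was at 3.18, 2.46 and 3.35 against 1.53, 1.25 and 1.38 (-0.74, SE 0.11, adjusted p = 0.0040). Tmem147, a membrane protein of the endoplasmic reticulum, was at 74.2, 64.6 and 73.3 against 41.5, 41.7 and 54.1 (-0.62, SE 0.11, adjusted p = 0.0069). All 3 fell in every KO library, KO replicate 1 included, where Alkbh6, Haus5 and Tmem147 were at 0.472, 0.511 and 0.588 times the WT mean. Haus5 and its neighbour Rbm42 share a same-strand gene model (Gm21982). Rbm42, an RNA-binding protein gene, was at 32.6, 32.9 and 34.7 FPKM in WT and 30.7, 30.2 and 27.7 in KO (-0.17, SE 0.06, adjusted p = 0.056, but 0.0387 without KO replicate 1).

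The list also held smaller falls. Polr2i, a subunit of RNA polymerase II, was at 15.8, 16.6 and 17.7 FPKM in WT and 13.5, 11.6 and 12.9 in KO (-0.38, SE 0.07, adjusted p = 0.0087). Sdhaf1, an assembly factor of succinate dehydrogenase, was at 18.3, 18.5 and 19.6 against 15.6, 14.7 and 14.4 (-0.32, SE 0.06, adjusted p = 0.0065). Both kept their call in every fit that left out 1 library, and Sdhaf1 missed it with equal sums outside the acinar list (adjusted p = 0.0629). The splicing factor gene U2af1l4 was at 23.7, 21.8 and 21.8 against 19.9, 17.3 and 14.9 (-0.36, SE 0.10, adjusted p = 0.029). Tbcb, a tubulin folding cofactor, was at 36.2, 32.6 and 36.1 against 31.5, 30.2 and 30.0 (-0.19, SE 0.06, adjusted p = 0.044). These 2 calls did not last. U2af1l4 missed it without WT replicates 1, 2 or 3 (adjusted p of 0.104, 0.0681 and 0.0763) and KO replicate 2 (0.0711), and Tbcb without WT replicates 1 or 3 (0.153 and 0.149) and KO replicates 2 or 3 (0.0983 and 0.0949). In KO replicate 1 alone the adjusted p was 0.153 for U2af1l4 and 0.221 for Tbcb, with the acinar covariate 0.130 and 0.175, and 0.0709 and 0.136 with equal sums outside the acinar list. Polr2i and Tbcb overlap on opposite strands, as do U2af1l4 and Psenen, and the strand setting of the counting is not given in the sources used here.

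Lin37, a subunit of the MuvB complex that controls cell cycle genes, was the only gene of this list to rise, from 6.35, 6.67 and 8.53 FPKM to 9.69, 11.1 and 10.8 (0.50, SE 0.11, adjusted p = 0.012). It missed the threshold without WT replicate 1 (adjusted p = 0.0502), in KO replicate 1 alone (0.104), with the acinar covariate (0.0606) and with equal sums outside the acinar list (0.284). Lin37 (chr7:30555441-30559838) overlaps Hspb6 (chr7:30552178-30555443) on the opposite strand by a few bases at their ends only, and Hspb6 rose too. Capns1, the small subunit of calpains, differed little in size although its groups did not overlap, at 99.0, 98.1 and 102 against 95, 94.8 and 95.6 FPKM (adjusted p = 0.34). The transcription factor gene Usf2 was at 27.3, 26.4 and 26.8 against 25.5, 25.5 and 25.2 (adjusted p = 0.22), again without overlap. Psenen, a subunit of gamma-secretase, was between 85.8 and 91.1 in WT and between 79.6 and 90.9 in KO (adjusted p = 0.41). Wdr62 was below 0.33 FPKM throughout and was not tested.

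From Haus5 to Sbsn, 105 to 191 kb from Ffar3, lay a stretch singled out after the values were seen. Its ends were set by genes that were lower in KO, so the count is no test of the stretch. In it 5 genes were lower in every KO library: Haus5, Tmem147, 2200002J24Rik, Atp4a and Sbsn, the last of them untested. Over all tested genes 28.5% were lower in every KO library. Gapdhs, the sperm form of a glycolytic enzyme, lies between these genes and was at 0.0651 FPKM or less. Atp4a, the catalytic subunit of the acid pump of the stomach, was at 4.16, 3.46 and 3.77 FPKM in WT and 0.915, 0.667 and 0.837 in KO (chr7:30712209-30725534; log2 difference -1.41, SE 0.10, adjusted p = 0.00037), so that its WT mean was 4.71 times its KO mean. The protein-coding gene 2200002J24Rik was at 2.54, 1.57 and 2.16 against 0.319, 0.103 and 0.161 (-1.36, SE 0.15, adjusted p = 0.0013). Its WT mean was 10.8 times its KO mean, the largest such ratio among the 13 that fell. Sbsn, which encodes suprabasin of the skin, had too low a mean to be tested and was at 1.46, 1.16 and 0.909 against 0.171, 0.372 and 0.771. With no filter its log2 difference was -0.61 (adjusted p = 0.0452).

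**Figure D2:**
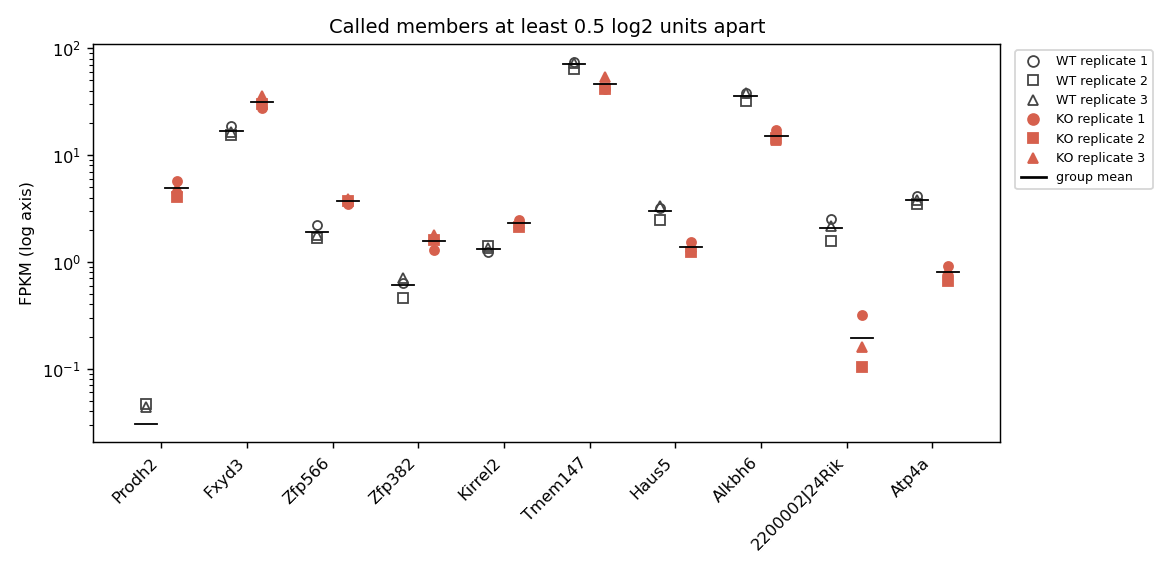
FPKM (log axis) in each of the 6 libraries for the 10 genes that passed the test and were at least 0.5 log2 units apart, with open WT and filled KO symbols and lines at the group means. The KO symbols lie on one side of the WT symbols for each gene, and the 0 of Prodh2 in WT replicate 1 cannot be drawn on this axis.

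The largest rise was that of Prodh2, an enzyme of hydroxyproline breakdown that is known mainly from liver and kidney. Prodh2 was listed at 0 in WT replicate 1, was at 0.0466 and 0.0438 FPKM in WT replicates 2 and 3, and was at 5.69, 4.07 and 4.91 in the KO libraries (chr7:30493622-30513402; log2 difference 2.51, SE 0.12, adjusted p = 0.00022). It had rank 23 among the 11669 tested genes by the size of its difference. KO replicate 1, with the lowest acinar share, had the highest value. Its neighbours did not pass the test. Nphs1 on one side was below its WT values in KO replicate 1 and above them in KO replicates 2 and 3 (log2 difference 0.79, SE 0.35, adjusted p = 0.11). Arhgap33 on the other side lay above WT in every KO library, at 2.98, 2.72 and 3.07 in WT and 3.31, 3.73 and 3.16 in KO (0.16, SE 0.08, adjusted p = 0.15). Of the 7 metabolic, hormone and unclassed genes, 4 were tested, of which Prodh2 and Gramd1a rose and 2200002J24Rik fell. That was 75% called, against 39.9% of all tested genes. Gramd1a, which moves sterols between membranes, rose from 34.0, 32.7 and 33.8 to 39.7, 38.0 and 38.0 FPKM (0.20, SE 0.05, adjusted p = 0.020). Gramd1a missed the threshold without WT replicates 1, 2 or 3 (adjusted p of 0.0655, 0.0662 and 0.0671), and with equal sums outside the acinar list (0.883). AI428936, now Syne4, a linker of the nuclear envelope, was at 19.0, 19.2 and 20.2 against 17.8, 22.6 and 22.9 (adjusted p = 0.42, but 0.019 without KO replicate 1). Hamp, the iron hormone hepcidin, was below 0.55 FPKM throughout. Etv2, a factor of early blood vessels, was listed at 0 in 5 libraries and at 0.0818 FPKM in KO replicate 3.

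Genes of nerve and synapse were split: of 5, 1 rose, 1 fell, 2 did not pass (Aplp1 and Arhgap33) and 1 was not tested. That was 50% of the tested ones called, against 39.9% of all tested genes. Lrfn3, a synaptic adhesion molecule, rose from 17.1, 17.0 and 17.4 FPKM in WT to 23.5, 23.5 and 22.2 in KO (0.40, SE 0.05, adjusted p = 0.0018), but with equal sums outside the acinar list the log2 difference was 0.17 (adjusted p = 0.553). Clip3, a microtubule-binding protein, was at 9.48, 9.91 and 10.3 against 9.09, 7.97 and 8.29 (-0.21, SE 0.07, adjusted p = 0.047). That fall was small, and it missed the threshold without WT replicates 1, 2 or 3 (0.0892, 0.114 and 0.160) and KO replicates 2 or 3 (0.116 and 0.0953). It also missed it in KO replicate 1 alone (0.337), with the acinar covariate (0.231) and with equal sums outside the acinar list (0.122). Aplp1, a relative of the amyloid precursor protein and the most highly expressed of the 53, was at 362, 362 and 368 FPKM in WT and 349, 259 and 263 in KO (-0.34, SE 0.13, adjusted p = 0.067). KO replicate 1 lay close to WT, and without it the adjusted p was 0.00179. KO replicates 2 and 3 are the libraries with the high acinar shares. With the acinar covariate the log2 difference of Aplp1 was -0.13 (adjusted p = 0.269), and the cause of the difference was not tested. Mag, the myelin-associated glycoprotein, was below 0.08 FPKM in every library.

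Of the 8 genes of cell adhesion and epithelia, 7 had a row and 4 were tested, of which only Kirrel2 passed. That was 25% called, against 39.9% of all tested genes. Kirrel2, an adhesion molecule of the nephrin family that is known from beta cells, rose from 1.23, 1.39 and 1.35 FPKM to 2.48, 2.12 and 2.32 (0.51, SE 0.09, adjusted p = 0.0063), and KO replicate 1 had the highest value. With equal sums outside the acinar list its adjusted p was 0.171. Lsr, a lipoprotein receptor and part of epithelial junctions, was at 32.2, 31.1 and 32.0 against 34.5, 35.3 and 35.4 (0.14, SE 0.05, adjusted p = 0.056, but 0.0487 without KO replicate 1), without overlap. Upk1a and Dmkn, a bladder and a skin gene, were below 0.87 FPKM. Nphs1, which encodes nephrin, and Hpn, a membrane serine protease, were high in KO replicates 2 and 3 only. Nphs1 was at 0.451, 0.378 and 0.362 in WT and 0.349, 1.67 and 2.91 in KO (0.79, SE 0.35, adjusted p = 0.11). Hpn was at 1.80, 1.02 and 1.25 against 0.953, 7.29 and 16.8 (1.5, SE 0.71, adjusted p = 0.13). Without KO replicate 1 the adjusted p was 0.00276 for Nphs1 and 0.00191 for Hpn, and with KO replicate 1 alone the log2 differences were -0.05 and -0.26.

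The FXYD genes, 186 to 221 kb on the other side of Ffar3, differed from one another: of 3 tested, Fxyd3 alone passed. Over all tested genes 39.9% passed. Fxyd3, a regulator of the sodium pump in epithelia, rose in each KO library, from 18.9, 15.4 and 16.3 FPKM to 27.6, 30.1 and 35.9 (0.85, SE 0.11, adjusted p = 0.0023). Fxyd1, the pump regulator phospholemman, was at 2.45, 2.20 and 2.73 against 2.89, 10.7 and 23.7 (1.59, SE 0.59, adjusted p = 0.067, but 0.00163 without KO replicate 1). Fxyd5 was at 4.62, 3.91 and 4.67 against 5.60, 7.07 and 3.84 (0.24, SE 0.18, adjusted p = 0.30, but 0.031 without KO replicate 3), with overlap. The summed acinar markers were 22434 to 35335 FPKM in WT, and for KO replicates 1, 2 and 3 they were 21067, 209611 and 446629, so Fxyd1, Hpn and Nphs1 were high in the libraries in which the acinar list was high. All 16 acinar markers were detected in at least 1 library, and 0 of them lay above or below WT in every KO library. Amy2a5 did not follow the sum. It was listed at 0 in KO replicates 2 and 3, and was at 33.4 FPKM in WT replicate 2 and 5.06 in KO replicate 1. Duct and epithelial markers summed to 1323 to 1470 in WT and 1725 to 2379 in KO, with 7 of 12 above WT in every KO library, so they were higher in all 3 KO libraries as Fxyd3 was. The part of either list in these differences was not tested. Once the acinar level entered as a covariate, the log2 difference of Fxyd3 was 0.68 (adjusted p = 0.00727) and that of Hpn was -0.000796. In the same fit that of Fxyd1 was 0.364 (adjusted p = 0.12) and that of Nphs1 was 0.0749 (adjusted p = 0.703). The other acinar adjustment went the other way for Fxyd1 and Hpn. When library sums were made equal after leaving out the acinar genes, both passed. Their log2 differences were then 1.37 (adjusted p = 0.0145) and 1.28 (adjusted p = 0.0471). Nphs1 did not pass there, at 0.641 (adjusted p = 0.0756).

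**Figure D3:**
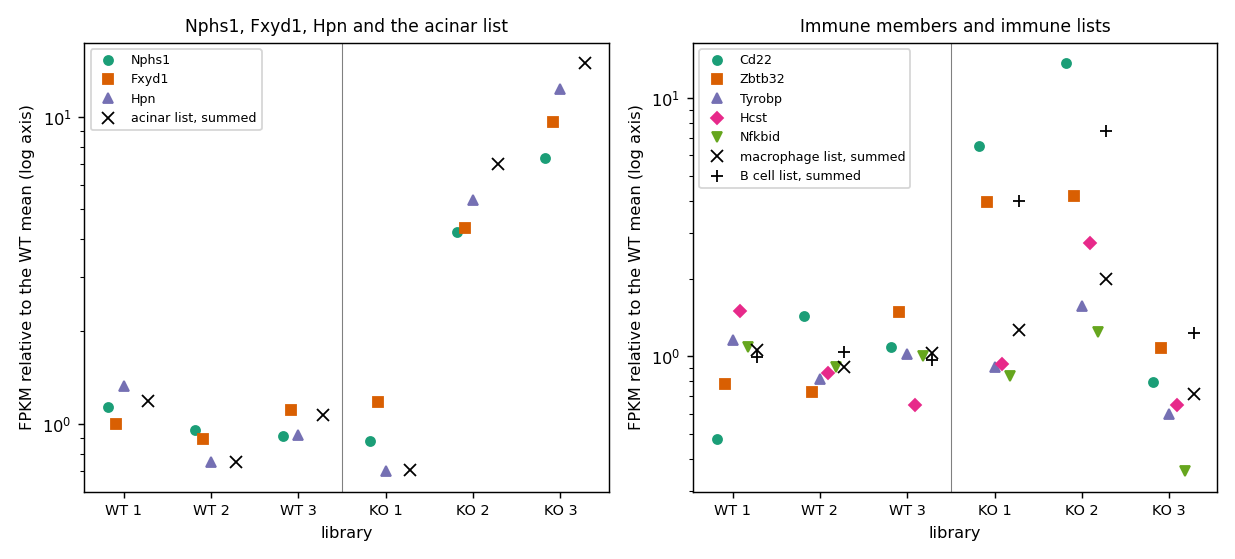
FPKM relative to the WT mean (log axis) in each library for Nphs1, Fxyd1 and Hpn beside the summed acinar markers, and for the immune genes beside the summed macrophage and B cell markers. Nphs1, Fxyd1 and Hpn are highest in KO replicates 2 and 3, and Cd22 is highest in KO replicates 1 and 2.

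No immune gene passed: 3 of the 5 were tested, and all 5 overlapped between the groups. Over all tested genes 39.9% passed and 56.3% did not overlap. Tyrobp, the signalling adaptor DAP12 of myeloid and natural killer cells, was at 9.81, 6.92 and 8.68 FPKM in WT and 7.69, 13.3 and 5.06 in KO (adjusted p = 0.91). Its neighbour Hcst, the adaptor DAP10, was at 1.38, 0.795 and 0.597 against 0.864, 2.54 and 0.598 (adjusted p = 0.60). Nfkbid, an inhibitor of NF-kappaB, was at 3.69, 3.08 and 3.40 against 2.85, 4.23 and 1.22 (adjusted p = 0.41). KO replicate 2 was the highest library for all 3, and the summed macrophage markers were 113 to 132 FPKM in WT, against 157, 248 and 89.3 for KO replicates 1, 2 and 3. Of 12 macrophage markers, 2 were above WT in every KO library and 2 below. In KO replicate 2 Lyz2 was at 94.8 FPKM, against 9.51 to 11.5 in WT, and C1qa at 42.5, against 51.5 to 58.8. The part of the macrophage markers in these values was not tested. Cd22, the B cell receptor inhibitor closest to Ffar3, was at 0.0506, 0.150 and 0.115 FPKM in WT and 0.687, 1.44 and 0.0835 in KO (no filter: adjusted p = 0.173). Zbtb32, a repressor found in lymphocytes, was at 0.154, 0.143 and 0.291 against 0.776, 0.815 and 0.211 (no filter: adjusted p = 0.122). B cell markers summed to 10.1 to 10.7 FPKM in WT and 41.2, 77.4 and 12.7 in KO, with 8 of 9 above WT in every KO library, and the B cell gene Ms4a1 was listed at 0 in all WT libraries. T and NK cell markers summed to 0.412 to 0.664 FPKM in WT and 10.5, 13 and 1.65 in KO. The part of either list in the values of the immune genes was not tested.

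The interval held 19 further gene rows within 1 Mb of Ffar3, of which 8 were tested, 3 rose and 1 fell. Over all tested genes 20.3% rose and 19.6% fell. The small heat shock gene Hspb6, beside Lin37, was at 13.4, 13.8 and 14.8 against 23.3, 27.3 and 33.6 (0.94, SE 0.12, adjusted p = 0.0023). Fam187b, beside Lsr, was at 8.84, 8.97 and 9.07 against 5.97, 5.49 and 4.96 (-0.62, SE 0.07, adjusted p = 0.0015). Among the others, Wbp7 (now Kmt2b, a histone methyltransferase), rose by 0.29.

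The differences were also described by distance from Ffar3, with the Ffar genes left out. Within 1 Mb, 27 of 51 tested genes differed (52.9%), 13 of them by at least 0.5 (25.5%) and 5 by at least 1 (9.80%). Among these 5, Prodh2, 2200002J24Rik and Atp4a were under 1 FPKM in one group and entered the test through the other. Over all tested genes the shares were 39.9%, 14.2% and 2.78%. At 1 to 2 Mb, 6 of 11 differed and 0 by at least 1, and at 2 to 5 Mb 23 of 68 (33.8%) and 3 (4.41%). Farther out, 37.2% of 226 genes differed at 5 to 20 Mb, 39.5% of 509 on the rest of the chromosome, and 40.0% of 10602 on other chromosomes, where 2.74% differed by at least 1. These shares are a description, and the difference between distances was not tested.

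**Figure D4:**
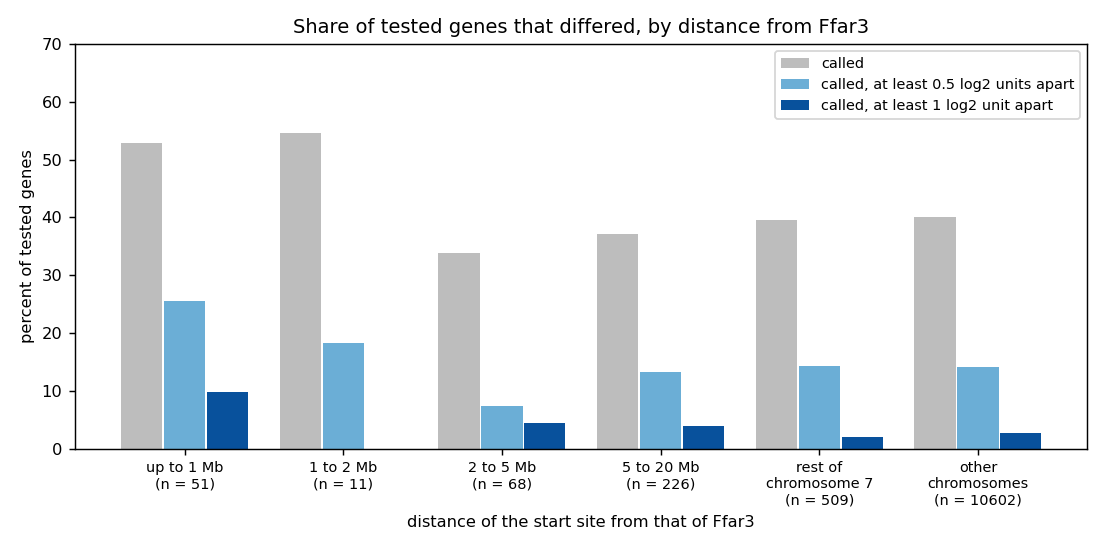
Percent of tested genes that differed between KO and WT (adjusted p under 0.05), and that differed by at least 0.5 or 1 log2 unit, by distance of the start site from that of Ffar3, without the Ffar genes. The share at least 1 log2 unit apart is 9.80% of 51 genes within 1 Mb and 2.74% of 10602 genes on other chromosomes. The former includes Prodh2, 2200002J24Rik and Atp4a, which entered the test through one group only.

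Of the 23 differences, 9 kept their direction and call in every alternative that tested them: Prodh2, Fxyd3, Zfp382, Polr2i, Tmem147, Haus5, Alkbh6, 2200002J24Rik and Atp4a. Each of these was on one side of WT in all 3 KO libraries. Prodh2, Zfp382, 2200002J24Rik and Atp4a were under 1 FPKM in one group and entered the test through the other. In 16 of the 23 the call also held in KO replicate 1 alone. Rescaling by the median ratio of genes between libraries kept all 23 calls. Scaling the libraries to equal sums outside the acinar list moved the median of all tested genes by -0.22. It kept 10 of the 23 calls and ended 13, among them that of Gramd1a, whose sign turned (-0.05).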

How the data were processed

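RNA sequencing of pancreatic islets gave 6 libraries, 3 WT and 3 KO, grouped and numbered by their titles. TopHat2 2.0.8b, Cuffdiff 2.1.1 and build mm10 are named, with no role or order, per the submitters' processing notes. The sources used here do not give the gene annotation, the strand setting or any scaling of one library to another. For genes above 0 in all libraries, the median ratio to the geometric mean was 0.9952 to 1.005 in the 6 libraries. By that measure the values were already level, although the FPKM sums were not. The values the authors deposited were read as FPKM because Cuffdiff reports that unit, which the files leave unnamed. From the steps between values under 0.06 FPKM, 1 fragment was worth an estimated 0.841 to 1.68 times its worth in WT replicate 1, most in KO replicate 3. An FPKM value depends on all genes of its library, and fragments of overlapping genes are divided by estimate.

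Rows with a mean of at least 1 FPKM were tested on log2(FPKM + 1) with limma 3.58.1 in R 4.3.3 (eBayes with a trend, a group term alone, residual degrees of freedom 4) and Benjamini-Hochberg adjustment over 11669 rows and a threshold of 0.05. This scale understates changes of low values. GENCODE M21 (GRCm38, the same assembly as mm10) gave the positions, 52 of 53 genes by symbol and 1 by an older symbol. The fit was tested on simulated data. The genes, lists and tests were chosen with earlier results of these data known. By rule, values in every library are given for those of the 53 genes that passed or whose groups did not overlap. The alternatives were a pseudocount of 0.1, a filter at 5 FPKM or none, 3 rescalings, a robust prior, array weights, the replicate block, the mean acinar level as a covariate, KO replicate 1 alone against WT, and each library left out. Some genes of the interval and of the marker lists are not reported here by name.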

Additional observations from a re-analysis of the deposited data

How the results depend on the processing

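Of 711 values of the 43 tested genes under 17 alternatives, 599 kept their direction and their side of the threshold, 74 lost the call in the same direction, 19 gained it and 19 changed sign. The count of 23 became 13 of 23 tested at a mean of at least 5 FPKM (5 higher, 8 lower, 19 without overlap), where fewer genes are tested. With equal sums outside the acinar list it became 12 (5 higher, 7 lower, 20 without overlap), and 15 (7 lower) once the acinar level was a covariate; the cause was not tested. In KO replicate 1 alone 8 were lower. With 1 library left out, the count ranged from 15 to 28 (6 to 13 higher, 8 to 15 lower), and genes without overlap from 32 to 36. The only sign change of a gene that passed was Gramd1a at -0.0451 with equal sums, which also ended its call. There Lsr (-0.106), Zfp74 (-0.0182), Zfp260 (-0.0294), Arhgap33 (-0.0208) and AI428936 (-0.136) also changed sign. The acinar covariate turned AI428936 (-0.0726), Tyrobp (0.0399), Psenen (0.0216) and Hpn (-0.000796). KO replicate 1 alone turned AI428936 (-0.123), Hcst (-0.0242), Nphs1 (-0.0504), Psenen (0.0492) and Hpn (-0.26). With 1 library left out, Tyrobp ranged from -0.372 to 0.247 (0.0553 without WT replicate 1), Hcst from -0.136 to 0.439 and Nfkbid from -0.586 to 0.0331. The replicate block gave 18 calls (8 higher, 10 lower), all among the 23; same-numbered libraries did not deviate together (correlations -0.206, -0.0885 and 0.0276), and 1 of 3 WT libraries was most like the KO library of its own number, so the numbers were not taken as pairs. Total depth is unknown, so low values carry no counting interval. Over all tested genes, equal sums outside the acinar list gave 557 higher and 1291 lower, against 2368 and 2289 as deposited.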
